A study of Homo sapiens with 4 samples.

Results

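The 10 genes that encode the D-type cyclins, their partner kinases and the CDK inhibitors named for them were taken by gene symbol from a table of 61806 genes. They were CCND1, CCND2 and CCND3 (the D-type cyclins), CDK4 and CDK6 (the kinases), CDKN2A, CDKN2B and CDKN2C (the INK4 inhibitors p16, p15 and p18) and CDKN1B and CDKN1C (the CIP/KIP inhibitors p27 and p57). RNA was sequenced from 2 human bone cancer cell lines, JJ012 (chondrosarcoma) and 143B (osteosarcoma), both grown in suspension so that the cells had no attachment to a surface. In each line, cells given 1 mM melatonin for 72 h were compared with control cells. Each of the 4 conditions was 1 library of an established line, so no difference has a replicate check and no p-value is given. Of the 10 genes, 8 had counts and reached 1 FPKM (counts scaled to exonic length and to the library total) in at least 1 library, and CDKN2A and CDKN2B were at 0 in all 4.

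A D-type cyclin binds CDK4 or CDK6, and the active complex phosphorylates the RB family of proteins, which releases the E2F transcription factors that drive entry into S phase. INK4 inhibitors bind CDK4 and CDK6 themselves and keep the cyclin away, whereas CIP/KIP inhibitors bind cyclin and CDK complexes, with CDK2 among their main targets. In adherent cells, cyclin D1 depends on signals from growth factors and from attachment, and loss of INK4 function is frequent in bone sarcomas.

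In the table (hg38) the cyclin genes lie at chr11:69641156-69654474 (CCND1, ENSG00000110092), chr12:4269771-4305353 (CCND2, ENSG00000118971) and chr6:41934934-42050357 (CCND3, ENSG00000112576), and the kinase genes at chr12:57747727-57756013 (CDK4, ENSG00000135446) and chr7:92604921-92836573 (CDK6, ENSG00000105810). The CIP/KIP genes lie at chr12:12685498-12722369 (CDKN1B, ENSG00000111276) and chr11:2883213-2885775 (CDKN1C, ENSG00000129757). The INK4 genes lie at chr9:21967752-21995301 (CDKN2A, ENSG00000147889), chr9:22002903-22009305 (CDKN2B, ENSG00000147883) and chr1:50960745-50974634 (CDKN2C, ENSG00000123080), so that CDKN2A and CDKN2B are neighbours.

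The count ratio of CDK4 to CDK6 differed 3.16-fold between the JJ012 libraries, and the sequences upstream of the starts of this pair are shown for that reason. Each run is 250 bases before a RefSeq start (GRCh38.p14), written 5′ to 3′ on the gene's own strand, the minus strand for both. CDK4 lies on chromosome 12 and its run is chr12:57752311-57752560. CDK6 lies on chromosome 7 and the run before the more upstream of its RefSeq starts is chr7:92836574-92836823. Capitals mark the E-box CACGTG and the GC box GGGCGG, the second of which reads CCGCCC where it lies on the other strand.
CDK4 promoter: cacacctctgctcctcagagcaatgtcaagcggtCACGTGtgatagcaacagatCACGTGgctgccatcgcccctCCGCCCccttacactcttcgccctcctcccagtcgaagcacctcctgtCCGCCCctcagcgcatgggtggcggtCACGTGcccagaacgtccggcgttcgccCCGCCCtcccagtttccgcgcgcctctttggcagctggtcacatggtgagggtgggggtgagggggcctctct
CDK6 promoter: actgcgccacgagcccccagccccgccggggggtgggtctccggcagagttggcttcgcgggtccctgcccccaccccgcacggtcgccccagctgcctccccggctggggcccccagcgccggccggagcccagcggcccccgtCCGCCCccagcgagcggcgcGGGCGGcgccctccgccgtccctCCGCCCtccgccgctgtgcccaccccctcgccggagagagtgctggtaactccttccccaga
The CDK4 run held 3 E-boxes, the letters bound by MYC and related factors, and 3 GC boxes. Of 35116 windows of this length, 28 (0.0797%) held at least 3 E-boxes, a cut taken from the CDK4 run itself. That share is a description and not a test. The CDK6 run held 0 E-boxes and 3 GC boxes. An E-box stood in 6.34% of all windows and a GC box in 42.6%. Of the 10 genes, 7 had windows (13 in all), of which 3 held an E-box, 9 a GC box and 0 the E2F motif TTTNGCGC, which stood in 1.51% of all windows. All motifs were searched on both strands, GC box matches may overlap in longer GC-rich runs, and a match describes letters and not a bound site.

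The libraries held 15889564 to 19218343 counts, so that 3 counts, taken as the floor, stood for 0.156 to 0.189 CPM (counts scaled to the library total). Between 13198 and 14477 genes reached 1 FPKM per library. The share of counts from mitochondrial genes was 6.78% in control and 4.35% in melatonin-treated JJ012 cells, and 1.63% and 2.46% in 143B. The RNA fitted the labelled tumour types only in part. SOX9, the chondrocyte regulator, stood at 15.06 FPKM in JJ012 control and 15.48 FPKM in 143B control, and COL2A1, the defining cartilage collagen, had 0 counts in both JJ012 libraries and at most 5 in 143B. RUNX2, the osteoblast regulator, stood at 4.28 FPKM in 143B control and at 3.02 FPKM in JJ012 control. IBSP, a late osteoblast gene, had 0 counts in both 143B libraries. The bone matrix genes SPP1 and COL1A1 were higher in the chondrosarcoma line, at 79.39 and 10.92 FPKM in JJ012 control and 0.40 and 0.49 FPKM in 143B control. The cartilage collagen COL11A2 went with the label, at 1.67 and 0.52 FPKM in JJ012 and 143B control. The other listed markers were low and pointed both ways. In the same order, the cartilage gene ACAN had 4 and 19 counts, COL9A1 3 and 0, and MATN3 55 and 32. Of the osteoblast genes, BGLAP had 15 and 22 counts, SP7 8 and 0, and ALPL 20 and 17.

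**Figure D1:**
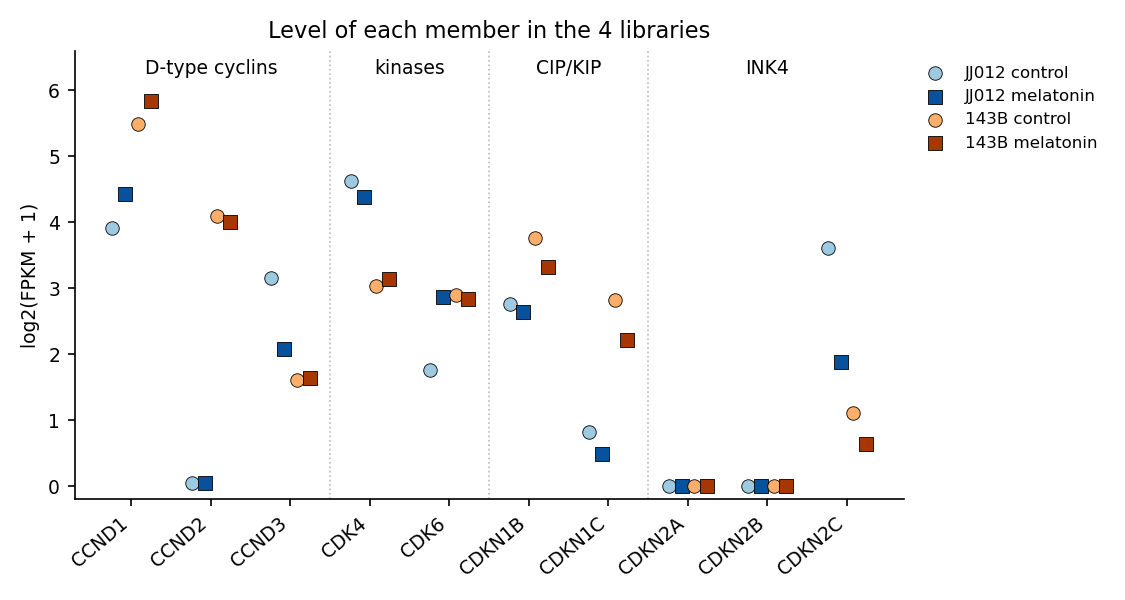
Level of each of the 10 genes in the 4 libraries, as log2(FPKM + 1) on the vertical axis, with 1 point per library, circles for control and squares for melatonin. CCND2 stood at 16.06 and 15.10 FPKM in 143B and at 0.03 in both JJ012 libraries, and CDKN2A and CDKN2B lay at 0 throughout.

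In JJ012 cells, the make-up of the D-type cyclin and kinase mRNA differed between control and melatonin. CDK6 was higher, and CCND3 and CDKN2C were lower, by more than the fold threshold, a log2 fold change of 0.58 on log2(FPKM + 1). CDK4, CCND1 and CDKN1B stayed under it. Thus 1 of 6 genes tested was higher and 2 were lower, in a comparison where 19.6% of 15794 genes passed the threshold upward and 18.6% downward, and shares of this size do not set the genes apart. Their median log2 fold change was -0.18, and that of all genes tested was 0.01. Tested genes reached 1 FPKM in at least 1 library of the comparison, which left out CCND2 and CDKN1C in JJ012.

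Among the kinases of JJ012, CDK6 stood at 2.40 FPKM (564 counts) in control and 6.34 FPKM (1252 counts) after melatonin. Its log2 fold change was 1.11, above that of 94.2% of genes tested, and its CPM was 2.64-fold higher (log2 1.40, 95% interval 1.26 to 1.55). These intervals, exact for the ratio of a pair of counts, cover counting error and nothing of the variation between cultures. CDK4 stood at 23.81 FPKM (1416 counts) in control and 19.92 FPKM (995 counts) after melatonin, a log2 fold change of -0.25. CDK4 was thus the more abundant kinase mRNA per length in both libraries, with CDK6 closer to it after melatonin. The CDK4 difference was sensitive to scaling, at 0.02 in TPM (counts divided by length, then scaled to the library). The ratio of CDK4 to CDK6 counts, in which library size cancels, went from 2.51 to 0.795, a 3.16-fold lower ratio (95% interval 2.77 to 3.60). Exonic length (3094 bases for CDK4 and 12239 for CDK6) does not cancel in it, and fold changes in JJ012 moved with length. Against the running medians of protein-coding genes of like length, given below, CDK4 lay at -0.07 and CDK6 at 0.76. The summed FPKM of the kinases was 26.2 in control and 26.3 after melatonin, of which CDK4 made up 90.9% and 75.9%.

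CDK4 has a neighbour that touches this measurement. Of its 3168 exonic bases in GENCODE 29, 1369 (43.2%) are shared with TSPAN31, a tetraspanin gene on the opposite strand, and the strand setting of the counting is not given in the sources used here. TSPAN31 stood at 9.40 FPKM in JJ012 control and 6.43 after melatonin, and at 3.85 and 4.37 in 143B. It was lower where CDK4 was lower and higher where CDK4 was higher, and how far the counts of the pair are shared was not tested.

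Among the D-type cyclins of JJ012, CCND3, which encodes the cyclin most prominent in blood cells, stood at 7.96 FPKM (881 counts) in control and 3.25 FPKM (302 counts) after melatonin. Its log2 fold change was -1.08, with 5.39% of genes tested lying lower, and its CPM was 2.45-fold lower (log2 -1.29, 95% interval -1.49 to -1.10). CCND1, the cyclin that responds to mitogens, stood at 14.05 FPKM (1286 counts) in control and 20.61 FPKM (1584 counts) after melatonin. Its log2 fold change of 0.52 lay just under the threshold and its CPM was 1.47-fold higher (log2 0.55, 95% interval 0.45 to 0.66). In TPM it was 0.82 and with TMM factors 0.59, both past the threshold. CCND2 had 4 counts in each JJ012 library, which gives no information on a change. The count ratio of CCND1 to CCND3 went from 1.46 to 5.25, a 3.59-fold higher ratio (95% interval 3.09 to 4.19). CCND1 supplied 63.8% of the summed D-type cyclin FPKM in control and 86.3% after melatonin, while the sum was 22.0 and 23.9. With the length of the principal transcript in place of the exonic length in the table, the sum was 37.6 and 31.8, so its direction depends on the length used.

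LTO1, which shares 497 of the 4830 exonic bases of CCND1 (10.3%), stood at 2.89 FPKM in JJ012 control and 4.56 after melatonin, and at 3.91 and 5.54 in 143B. It was thus higher after melatonin in both lines, as CCND1 was. Its part in the CCND1 values was not tested.

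Among the inhibitors of JJ012, CDKN2C, which encodes p18, differed most. It stood at 11.21 FPKM (650 counts) in control and 2.69 FPKM (131 counts) after melatonin, a log2 fold change of -1.73. Only 0.905% of genes tested lay lower. Its CPM was 4.17-fold lower (log2 -2.06, 95% interval -2.34 to -1.79). CDKN2D, which encodes the remaining INK4 protein p19, stood at 15.35 and 13.54 FPKM, a log2 fold change of -0.17, and the count ratio of CDKN2C to CDKN2D was 3.68-fold lower after melatonin (95% interval 2.89 to 4.69). The difference was thus larger for one INK4 gene than for the other within the same libraries. CDKN2C was also lower against its target CDK4, by 3.49-fold (95% interval 2.83 to 4.31). CDKN1B, which encodes p27, stood at 5.77 FPKM (1027 counts) and 5.21 FPKM (778 counts), a log2 fold change of -0.12 that became 0.12 in TPM. CDKN1C stood below 1 FPKM, at 36 counts in control and 16 after melatonin (log2 CPM ratio -0.92, 95% interval -1.87 to -0.03).

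**Figure D2:**
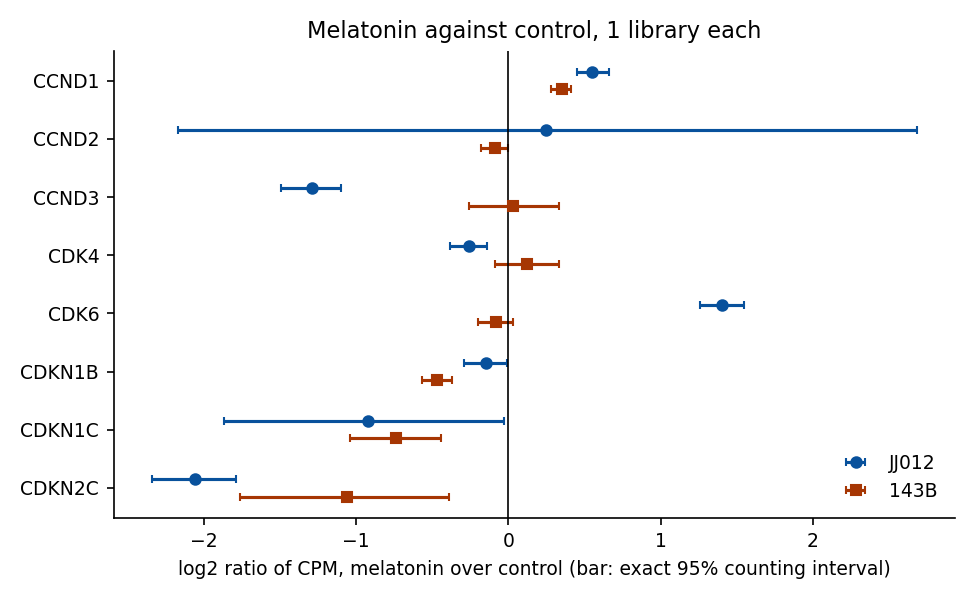
Log2 ratio of CPM, melatonin over control, for the 8 genes with counts in each line. Points are single pairs of libraries and bars are exact 95% intervals for counting error alone. In JJ012, CDK6 lies at 1.40, CCND3 at -1.29 and CDKN2C at -2.06, whereas in 143B CDK6 lies at -0.08 and CCND3 at 0.03.

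Exonic length moved with the fold changes in the JJ012 comparison. Over 11534 protein-coding genes, Spearman's rho between length and log2 fold change was 0.40 in JJ012 and -0.13 in 143B, given as a description across genes of the same libraries. CDK6 has an exonic length of 12239 bases, and the running median of the 501 protein-coding genes nearest in length was 0.35, which leaves a difference of 0.76. CCND3 (5761 bases) lay 1.10 below its running median of 0.02. CDKN2C (3018 bases) lay 1.54 below its running median of -0.19. All 3 remained past the threshold after this subtraction, while CDK4 lay at -0.07 and CDKN1B at -0.42.

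**Figure D3:**
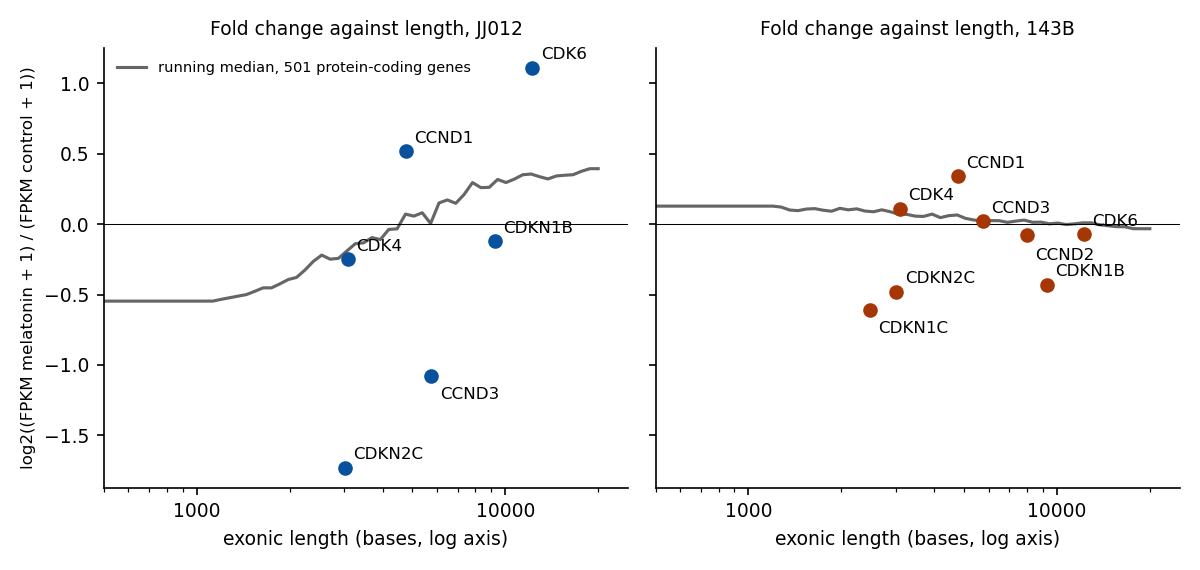
Log2 fold change (melatonin against control, FPKM + 1) against exonic length in bases on a logarithmic axis, for both lines, with the running median of 501 protein-coding genes as a line and the members as named points. In JJ012 the running median is -0.19 at the length of CDKN2C and 0.35 at that of CDK6, and both genes lie away from it.

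In 143B cells, CDKN1B, CDKN1C and CDKN2C were lower after melatonin and CCND1 was higher by more than counting error, and only CDKN1C passed the threshold. Of 8 genes tested, 0 were higher and 1, CDKN1C, was lower, where 6.09% of 14135 genes passed the threshold upward and 6.65% downward. The median log2 fold change of the 8 was -0.08, and that of all genes was 0.03. The 95% counting interval excluded 0 for 4 of them.

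CDKN1C, which encodes p57, stood at 6.07 FPKM (239 counts) in 143B control and 3.64 FPKM (155 counts) after melatonin. Its log2 fold change was -0.61, close to the threshold, and its CPM was 1.67-fold lower (log2 -0.74, 95% interval -1.04 to -0.44). CDKN1B stood at 12.53 FPKM (1843 counts) and 9.03 FPKM (1435 counts), a log2 fold change of -0.43 with 1.39-fold lower CPM. Both CIP/KIP members were thus lower, and their summed FPKM was 18.6 in control and 12.7 after melatonin. CDKN2C had 56 counts in control and 29 after melatonin (1.17 and 0.56 FPKM). Its log2 fold change was -0.48 and its CPM was 2.09-fold lower, with a wide interval (log2 -1.06, 95% interval -1.76 to -0.39). With a pseudocount of 0.1 FPKM in place of 1 the log2 fold change was -0.94, since the larger pseudocount shrinks the ratio of low values. CDKN1A, which encodes p21, was by far the most abundant inhibitor mRNA, at 94.30 FPKM in control and 107.14 FPKM after melatonin in 143B, and at 55.11 and 50.41 FPKM in JJ012. CDKN1A and CDKN2D stayed under the threshold in both lines.

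CCND1 stood at 43.97 FPKM (3326 counts) in 143B control and 55.95 FPKM (4572 counts) after melatonin. Its log2 fold change was 0.34 and its CPM was 1.27-fold higher (log2 0.35, 95% interval 0.28 to 0.41). CCND2 stood at 16.06 FPKM (2038 counts) and 15.10 FPKM (2070 counts). CCND1 was thus the leading D-type cyclin mRNA in both libraries, with CCND2 next. The count ratio of CCND1 to CCND2 was 1.35-fold higher after melatonin (95% interval 1.25 to 1.46). CCND3 stood at 2.06 and 2.11 FPKM, a log2 fold change of 0.02. The kinases differed by little, CDK4 at 7.16 and 7.78 FPKM (0.11) and CDK6 at 6.48 and 6.12 FPKM (-0.07). Their count ratio was 1.15-fold higher, with an interval that includes no change (95% interval 0.975 to 1.36).

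The effects of melatonin in the lines were set side by side as the JJ012 log2 CPM ratio minus that of 143B. The difference was 1.49 for CDK6 (95% counting interval 1.30 to 1.67) and -1.33 for CCND3 (-1.67 to -0.99). The interval for CDKN2C was -1.70 to -0.30, so that CDKN2C was lower after melatonin in both lines and more so in JJ012. For CDK4 the difference was -0.38 (-0.61 to -0.14), and for CDKN1B 0.32 (0.16 to 0.49). The length trend, which was unlike in the lines, is not taken off these differences. Against the running medians of protein-coding genes of like length, CDKN1B lay at -0.42 in JJ012 and -0.45 in 143B. CDK4 lay at -0.07 and 0.03, so these genes differed little between the lines on that scale. CDK6 lay at 0.76 and -0.08, and CCND3 at -1.10 and -0.01. CCND1 was higher in both lines with a difference of 0.20 (0.08 to 0.33), and the interval for CDKN1C included 0 (-0.18, -1.08 to 0.72). With 1 library per condition these differences were not tested against variation between cultures.

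The control libraries of the lines differed in the levels of all 8 genes. JJ012 had more CDK4, CCND3 and CDKN2C, and 143B had more CDK6, CCND1, CCND2, CDKN1B and CDKN1C. All 8 genes tested passed the threshold, 3 higher and 5 lower in JJ012, where 41.3% of 16929 genes passed upward and 27.4% downward. Most genes tested (68.7%) thus passed it in either direction. The JJ012 control library also served the melatonin comparison above, so the values of these comparisons are not independent. With TMM factors the shares of all genes were 32.4% and 35.5%, the median gene moved from 0.29 to -0.06, and the counts of members stayed at 3 and 5.

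Of the 8 genes, CCND2 differed most between the lines. It had 4 counts in JJ012 control and 2038 in 143B control, a 616-fold lower CPM (log2 -9.27, 95% interval -11.14 to -7.91). CCND1 was 3.13-fold lower in JJ012 and CCND3 3.85-fold higher. The summed D-type cyclin FPKM was 22.0 in JJ012 control and 62.1 in 143B control, with CCND2 at 0.118% of it in JJ012 and 25.9% in 143B. CDK4 was 3.33-fold higher in JJ012 and CDK6 was 2.70-fold lower, so that the FPKM ratio of CDK4 to CDK6 was 9.93 in JJ012 control, 3.14 in JJ012 after melatonin, and 1.11 and 1.27 in 143B. Fold changes between the control libraries also moved with exonic length (Spearman's rho -0.30 over 12329 protein-coding genes). With the running median subtracted, CDK4 went from 1.60 to 1.04, CDK6 from -1.14 to -0.87 and CDKN2C from 2.49 to 1.93. CDKN1C went the other way, from -2.01 to -2.74. The counts of members past the threshold stayed at 3 and 5.

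The inhibitors among the 10 genes split by class. CDKN2C was 9.60-fold higher in JJ012 control (log2 3.26, 95% interval 2.87 to 3.68), whereas CDKN1B was 2.17-fold lower and CDKN1C 8.03-fold lower. For each unit of kinase mRNA, the summed FPKM of the INK4 members was 0.428 in JJ012 control, 0.102 in JJ012 after melatonin, and 0.0856 and 0.0403 in 143B. That of the CIP/KIP members was 0.249, 0.214, 1.36 and 0.912 in the same order. With principal transcript lengths the INK4 values were 0.306, 0.0768, 0.0693 and 0.0323 and the CIP/KIP values 0.554, 0.513, 2.94 and 2.00. Which of these sums was the larger in JJ012 control thus depends on the length used. CDKN2C alone supplied the INK4 sum, and CDKN2D (15.35 FPKM in JJ012 control, 10.58 in 143B control) was left out of it. CDKN1A (55.11 and 94.30 FPKM in the same libraries) was left out of the CIP/KIP sum, so neither sum covers its whole class. CDKN1B has an exonic length of 9255 bases in the table and 2811 in GENCODE 29.

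**Figure D4:**
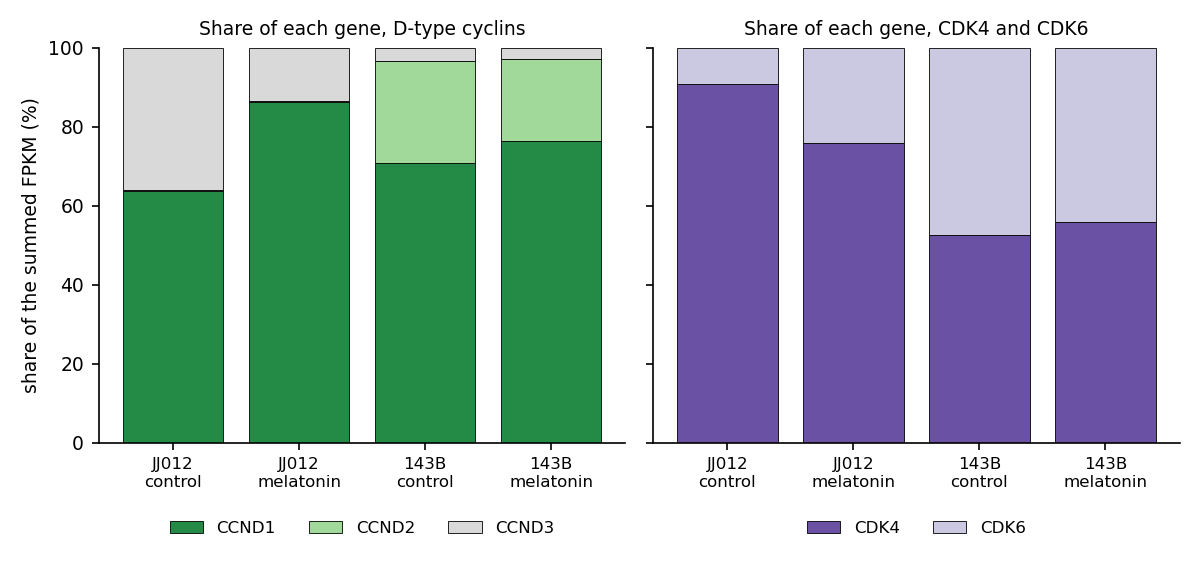
Make-up of the D-type cyclin mRNA and of the CDK4 and CDK6 mRNA in each library, as percent of the summed FPKM. CCND1 makes up 63.8% and 86.3% of the cyclin sum in the JJ012 libraries and 70.8% and 76.5% in 143B, and CDK4 makes up 90.9%, 75.9%, 52.5% and 56.0% of the kinase sum in the order JJ012 control, JJ012 melatonin, 143B control and 143B melatonin.

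Levels compared between genes rest on the exonic length in the table, which joins the exons of all transcripts. With the length of the principal transcript instead, an alternative chosen after seeing the data, CCND3 made up 58.5% of the D-type cyclin sum in JJ012 control and CCND1 41.4%, so the order of this pair in that library depends on the length used. After melatonin CCND1 led with either length, at 71.7% against 28.2% for CCND3. The ratio of CDK4 to CDK6 was then 14.0 and 4.45 in JJ012 and 1.56 and 1.80 in 143B.

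CDKN2A and CDKN2B had 0 counts in all 4 libraries. With the floor of 3 counts, levels up to 0.0486 FPKM for CDKN2A and 0.0472 FPKM for CDKN2B could not have been told from 0. CDKN2A encodes p16 and, in another reading frame, the p53 activator p14ARF, and counts per gene do not separate them. The 60 genes overlapping 1 Mb on either side of CDKN2A on chromosome 9 (hg38) were therefore described. In JJ012, 23 of them had a count in either library, and in 143B 14 had.

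In 143B, the run of neighbouring genes at 0 in both libraries that holds CDKN2A spanned 18 genes, from H3P30 to ENSG00000236921, over chr9:21638285-22214672 (576 kb), and included MTAP, CDKN2B and the long noncoding RNA CDKN2B-AS1. In JJ012 it spanned 5 genes in order of their starts, over chr9:21858910-21995301 (136 kb), and ended at CDKN2A. That stretch was not free of counts, since MTAP (chr9:21802636-21937651) and CDKN2B-AS1 (chr9:21994139-22128103), both counted in JJ012, overlap it. CDKN2B-AS1, which lies antisense to CDKN2B, had 1201 counts in JJ012 control and 2019 after melatonin (3.06 and 6.12 FPKM), a 2.00-fold higher CPM (log2 1.00, 95% interval 0.90 to 1.11), and 0 in both 143B libraries. Its log2 fold change in JJ012 was 0.81, where the running median of protein-coding genes was 0.39 at 20000 bases, near its length. Set against the floor of 3 counts in the 143B control library, CDKN2B-AS1 was 331-fold higher in JJ012 control. The lower end of the 95% counting interval for the log2 CPM ratio was 8.07, a smaller fold. MTAP, a purine salvage gene next to CDKN2A, had 22 and 60 counts in JJ012 and 0 in 143B. In the GENCODE release used for exon overlaps, CDKN2B-AS1 shares 341 of the 4329 exonic bases of CDKN2A (7.88%) and 0 of those of CDKN2B. CDKN2B-AS1 has 8024 exonic bases in that release and 20420 in the table of counts. The overlap in the annotation that was counted is therefore not known. How far shared bases bear on the 0 counts of CDKN2A and CDKN2B in JJ012 was not tested. Whether these genes were present in the DNA was not measured.

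In all, 37 of the 60 genes were at 0 in JJ012 and 46 in 143B, so that many outside these runs were also at 0. KLHL9, FOCAD, DMRTA1 and LINC01239 were counted in both lines. KLHL9 stood at 12.19 and 22.28 FPKM in JJ012 and 13.97 and 15.43 in 143B, and FOCAD at 9.49, 6.83, 5.14 and 4.68 FPKM in the same order. DMRTA1, the first gene after the 143B run, stood at 4.86 and 3.78 FPKM in JJ012 and 1.69 and 1.48 in 143B. LINC01239 stood at 6.98 and 3.71 FPKM in JJ012 and at 0.42 and 0.41 in 143B.

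**Figure D5:**
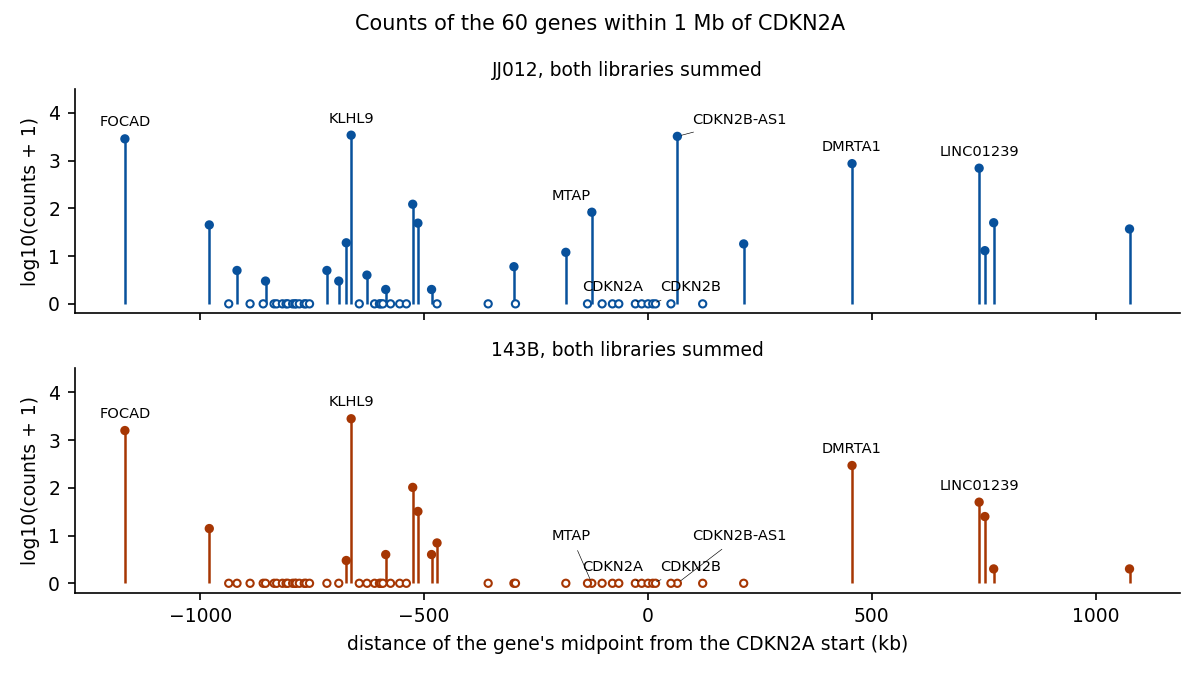
Counts per gene as log10(counts + 1), with the libraries of each line summed, against the distance of each gene's midpoint from the start of CDKN2A in kb, for the 60 genes within 1 Mb. Open points are genes at 0. In 143B, 18 adjoining genes including CDKN2A and CDKN2B lie at 0, while in JJ012 CDKN2B-AS1 and MTAP have counts within the same stretch.

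Downstream of the kinases, the RB family and the E2F factors were described from lists of the pathway. The length trend is not taken off the fold changes of listed genes here and below. In JJ012, 0 of 3 RB family genes passed the threshold (median 0.56), with RB1 at 9.83 and 15.04 FPKM (log2 fold change 0.57), RBL1 at 0.56 and RBL2 at 0.38. Of 8 E2F and DP genes tested, 3 were higher and 0 lower (median 0.30), beside 19.6% and 18.6% of all genes tested. They were the atypical repressor E2F7, at 6.39 FPKM in control and 20.84 after melatonin (1.56), the activator E2F3, at 4.25 and 9.67 (1.02), and E2F5, at 4.89 and 9.76 (0.87). In 143B, 0 of 3 and 0 of 8 passed, beside 6.09% of all genes higher and 6.65% lower, with E2F7 at 12.77 and 8.67 FPKM (-0.51) and RB1 at -0.32.

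Genes that E2F factors are known to drive were described in the same way. In JJ012, 4 of 15 tested were lower and 0 higher, beside 18.6% and 19.6% of all genes, among them TK1 (thymidine kinase, -1.56) and MYBL2 (-0.80), with a list median of -0.30. The JJ012 running median of protein-coding genes was -0.42 at 1859 bases, near the 1845 of TK1. It was -0.25 at 2705 bases, near the 2776 of MYBL2. In 143B, 3 of 15 were lower, CCNA2 (-0.99), RRM2 (-1.24) and MYBL2 (-1.04), and 2 were higher, PCNA (0.63) and MCM6 (0.59), beside 6.65% and 6.09% of all genes. The proliferation markers MKI67 and TOP2A were lower in 143B (6.40 and 2.81 FPKM, -0.96, and 12.18 and 4.76 FPKM, -1.19), and their values in JJ012 were 0.05 and -0.08. The summed FPKM of the 3 proliferation markers was 13.6 in both JJ012 libraries, and 21.7 and 9.79 in 143B. Fewer cycling cells and less RNA per cell cannot be told apart in such libraries.

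For the cyclin E and CDK2 axis, which acts after the D-type cyclins, CCNE1 was higher in 143B (4.40 and 7.27 FPKM, 0.61) and lay at 0.45 in JJ012. CDK2 lay at -0.16 in JJ012 and -0.28 in 143B, and CCNE2 stayed under 1 FPKM. The chaperone partner CDC37, which delivers client kinases such as CDK4 to HSP90, was lower in JJ012 (113.34 and 64.75 FPKM, -0.80) and stood at 39.10 and 41.81 FPKM in 143B. It was the 1 of 5 CDK-activating and folding genes past the threshold in JJ012, beside 18.6% of all genes lower and 19.6% higher. Of 8 genes for the turnover of D-type cyclins and p27, 3 were higher in JJ012, beside 19.6% of all genes. AMBRA1, the substrate adaptor of the ligase for D-type cyclins, lay at 0.84, the cyclin D1 kinase GSK3B at 0.72 and DYRK1B at 0.81. The JJ012 running median of protein-coding genes was 0.37 at 17649 bases, near the 17871 of GSK3B. The call of GSK3B thus depends on whether the length trend is taken off. In 143B, DYRK1B was the 1 of 7 past the threshold (0.68), beside 6.09% of all genes higher and 6.65% lower. Its counts were low, at 38 in control and 99 after melatonin in 143B (0.75 and 1.81 FPKM). In JJ012 they were 14 and 60 (0.23 and 1.16 FPKM). DYRK1B thus reached 1 FPKM in each line only after melatonin.

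Markers of cell types also differed in the JJ012 comparison, in which 18.6% of all genes tested were lower. The summed FPKM of 6 chondrocyte markers was 17.7 in JJ012 control and 7.13 after melatonin, with 2 of 2 tested lower, and 16.8 and 13.1 in 143B. For 7 osteoblast markers the sums were 94.7 and 68.2 in JJ012, with 1 of 3 lower, and 6.97 and 5.07 in 143B. For 7 markers of blood, endothelium and epithelium the sums were 15.4 and 6.30 in JJ012, with 2 of 3 lower, and 4.63 and 4.07 in 143B. The T cell gene CD3E made up most of the last sum in JJ012, at 9.73 and 3.28 FPKM, and had 0 counts in 143B, while PTPRC, the general leukocyte gene, had 42 and 4 counts in JJ012. The part of these shifts in the values of CCND3, CDK6 and CDKN2C was not tested.

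The genes most like CCND2 and CDKN2C, the members with the widest range over the libraries, were found by the distance between centred log2(FPKM + 1) profiles over 4 libraries among 8514 genes. For CCND2 they were APBB1 (0.11, 0.07, 17.21 and 15.82 FPKM in the order used above, distance 0.0435), TMEM200A (0.0643) and DSG2 (0.144). For CDKN2C they were RTBDN (9.52, 2.01, 0.68 and 0.44 FPKM, distance 0.188), CD63 (0.240) and CXCL16 (0.303). With 4 points that share libraries, likeness of this kind is a description of levels.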

How the data were processed

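Poly(A) RNA of 4 libraries was sequenced as paired ends on an Illumina instrument. The submitters' processing notes list cutadapt 1.9.1, HISAT2 2.2.1, HTSeq 0.6.1, DESeq2 and the build hg38, without their settings. The deposited table holds raw counts for each gene and the authors' FPKM, scaled to exonic length and the library's total count. Table columns were matched to samples by cell line, a final T being taken as melatonin treatment.

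Fold changes were computed as log2 of FPKM + 1 for genes at 1 FPKM or more in at least 1 of the 2 libraries, with the study's fold threshold of 0.58. Ratios of CPM and of pairs of counts were given exact 95% intervals, which cover counting error only. At 1 library per group no test was run. Positions, gene types and exon overlaps were checked against GENCODE 29, and promoter sequences came from RefSeq (GRCh38.p14). Python 3.11.15, pandas 2.3.3, numpy 2.4.6, scipy 1.17.1, matplotlib 3.10.9 and, for TMM factors alone, edgeR 4.0.16 in R 4.3.3 were used, and the scripts were tested on simulated data. The 10 genes and the pathway and marker lists were chosen with earlier results of these data known. Named beside the 10 were CDKN1A, CDKN2D, the RB family, CCNE1, CCNE2, CDK2, E2F genes past the threshold, genes near CDKN2A at 1 FPKM or more and the 3 genes most alike to each of 2 members. Others named, such as CDC37, TK1, MKI67 and the markers, as well as TSPAN31 and LTO1, were chosen after their values were seen. Of the genes near CDKN2A that reached 1 FPKM, IFNE and short or unnamed transcripts, all at 38 counts or fewer per library, were left out of the text.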

Additional observations from a re-analysis of the deposited data

Results flagged for a closer look

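Of 6 members tested in both lines, 3 had CPM ratios that pointed in opposite directions in JJ012 and 143B after melatonin. The JJ012 minus 143B difference of log2 CPM ratios was 1.49 for CDK6, -1.33 for CCND3 and -0.38 for CDK4. In 143B the counting intervals of all 3 ratios included 0 (CDK6 -0.20 to 0.03, CCND3 -0.26 to 0.33, CDK4 -0.09 to 0.33), so the opposite direction rests on JJ012. Against the running medians of protein-coding genes of like length, CDK4 lay at -0.07 in JJ012 and 0.03 in 143B. With 1 library per condition, the difference between the lines was not tested.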

How the results depend on the processing

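There were 12 other settings (10 planned, and 2 with protein-coding genes alone that were chosen after seeing the data). Under them, 232 of 240 values of single members kept their sign and 0 members past the threshold reversed. Dropping the filter on low values or raising it to 5 FPKM changes only which genes are tested. The values of members under those settings were therefore the same by construction, and their kept signs carry no information. In JJ012, CCND3 lay between -1.27 and -0.97, CDKN2C between -2.02 and -1.54 and CDK6 between 0.76 and 1.57. The count of members higher in JJ012 went from 1 to 2 in TPM and to 2 with TMM factors, in both by CCND1. In TPM the median gene of that comparison lay at 0.21 in place of 0.01, with 33.0% of genes higher and 19.9% lower. These values rest on unlike sets of genes, since 23153 reached the minimum in TPM and 15794 in FPKM. The count lower in 143B went from 1 to 2 with a pseudocount of 0.1 FPKM, with TPM and with CPM, each time by CDKN2C, and to 0 with a threshold of 1. Signs changed for CDK4 and CDKN1B in JJ012 (-0.27 to 0.02 and -0.42 to 0.12) and CCND3 in 143B (-0.02 to 0.03). No paired analysis was possible because each condition was 1 library. Counts of 16 to 56, as for CDKN1C in JJ012 and CDKN2C in 143B, limit their ratios.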
